A study of Mus musculus with 4 samples.

Results

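The genes described here encode the enzymes that build cholesterol and fatty acids and the proteins that switch those enzymes on and off. They were 31 genes chosen by symbol, of 21981 genes in the deposited tables, and were found in every table and read in every library. Of these, 18 encode enzymes of sterol synthesis, 6 encode regulators or carriers of sterols, and 7 encode enzymes that make, desaturate or lengthen fatty acids. Their RNA was measured by sequencing in microglia, the resident macrophages of the brain, taken from the embryonic mouse cerebral cortex at day 16 of gestation. The 2 libraries called cKO 2 and cKO 5 carry the genotype label Bach1 cKO, a conditional knockout that the series text writes as Bach1cKO-Cx3, without saying more of what drives the deletion. The 2 libraries called control 1 and control 6 carry the label Bach1 fl/fl, the floxed allele, and all 4 libraries are labelled untreated. Bach1 encodes a heme-sensing transcriptional repressor. The labels name neither the number of embryos behind a library nor whether animals were pooled or how the cells were isolated, so a p-value here reflects the spread of these libraries alone, which may be technical.

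Cholesterol is built from acetyl-CoA through mevalonate, isoprenoids and squalene to lanosterol, which is then trimmed to cholesterol. When sterols are scarce, SCAP escorts the SREBP transcription factors from the endoplasmic reticulum to the Golgi, where they are cut free to switch on these genes. INSIG proteins hold the complex back when sterols are plentiful. The barrier between blood and brain keeps out lipoproteins, so brain cells make their own cholesterol, and macrophages also take up lipid from dying cells and export it.

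Promoter sequences show what these genes share upstream. RefSeq windows (GRCm38.p6), from 250 bases before to 50 bases after a start, were given for 25 of the 31 genes. The CCAAT box, the binding site of NF-Y, was searched as CCAAT on both strands and stood in the windows of 21 of the 25 genes (84.0%), against 41.1% of all 27025 genes with a window. The palindromic E-box CACGTG was in 6 of 25 (24%), against 8.09% of all genes. The sterol regulatory element, searched as TCACNCCAC on both strands, was in 1 of 25 (4%), against 1.44% of all genes, and that gene was Hmgcs1. Variants of these letters were not searched, so the other windows were not shown to lack a sterol element. A site of the kind bound by BACH1 and its relatives with small Maf proteins, TGANTCAGC on both strands, was in 1 of 25 (4%) against 1.37%, in the window of Dhcr7. Matches of CCAAT on opposite strands can overlap, as they do at −62 and −59 in Fasn. These matches describe letters in a window and not sites in use. The stretches below are those of Hmgcs1 (the gene with the sterol element), of Mvk (the member with the smallest p in the genotype comparison), of Insig1 (an E-box beside a CCAAT box) and of Fasn (from the fatty acid branch). They run 5′ to 3′ along the gene and end before its annotated first exon, and capitals mark the sterol element, the CCAAT box and the E-box on either strand. Hmgcs1 is chr13:119690101-119690350 on the plus strand, Mvk is chr5:114444019-114444268 on the plus strand, Insig1 is chr5:28071162-28071362 on the plus strand and Fasn is chr11:120824548-120824797 on the minus strand.
Hmgcs1: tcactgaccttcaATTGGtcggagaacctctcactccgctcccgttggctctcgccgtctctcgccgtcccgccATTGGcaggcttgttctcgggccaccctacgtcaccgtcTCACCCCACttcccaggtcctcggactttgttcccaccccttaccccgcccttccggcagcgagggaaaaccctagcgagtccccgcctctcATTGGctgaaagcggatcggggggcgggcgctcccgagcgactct
Mvk: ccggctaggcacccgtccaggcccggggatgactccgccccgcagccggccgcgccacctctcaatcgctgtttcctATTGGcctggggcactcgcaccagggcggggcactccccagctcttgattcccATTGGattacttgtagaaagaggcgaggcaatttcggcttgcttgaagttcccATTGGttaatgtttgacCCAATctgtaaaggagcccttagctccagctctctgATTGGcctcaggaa
Insig1: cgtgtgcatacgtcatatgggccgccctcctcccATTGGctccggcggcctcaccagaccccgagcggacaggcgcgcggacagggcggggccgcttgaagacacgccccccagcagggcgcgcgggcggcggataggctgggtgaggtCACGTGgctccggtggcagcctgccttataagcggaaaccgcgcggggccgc
Fasn: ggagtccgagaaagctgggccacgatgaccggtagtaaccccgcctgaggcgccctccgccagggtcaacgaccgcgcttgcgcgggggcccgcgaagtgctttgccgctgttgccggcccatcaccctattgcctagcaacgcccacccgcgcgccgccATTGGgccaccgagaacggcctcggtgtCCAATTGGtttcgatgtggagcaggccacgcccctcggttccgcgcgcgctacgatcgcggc
In Hmgcs1 the sterol element TCACCCCAC began at position −137 from the RefSeq start, between CCAAT boxes at −176 and −45 that both lie on the opposite strand. In Mvk there were 5 CCAAT boxes, at −173, −120, −67, −50 and −14. Positions count from the RefSeq start of each window. For Insig1 the GENCODE exon begins 49 bases before that start, where the printed stretch ends, and the E-box began at −101 from the RefSeq start.

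The libraries held between 17233115 and 19305078 reads, and a level in CPM is a gene's share of that total. A count of 3, taken as the floor of detection, amounts to 0.155 to 0.174 CPM by library, and this floor covers counting error alone. The libraries differed in makeup within each genotype. The summed level of 20 microglia markers was 10554 CPM in cKO 2 and 41004 CPM in cKO 5, against 29042 CPM in control 1 and 46207 CPM in control 6, and no marker was at 0. The 14 markers of cortical excitatory neurons summed to 4710.1 CPM in cKO 2 and 381 in cKO 5, against 1339 CPM in control 1 and 422 CPM in control 6, and again none was at 0. Thus cKO 2 had the most neuronal and the least microglial RNA, and control 1 came next in both. In bulk RNA, fewer cells of a type and less RNA per cell cannot be told apart. The level of Bach1, the gene targeted, was 29.98 CPM in cKO 2 and 35.4 in cKO 5, against 45.8 in control 1 and 21.6 in control 6 (log2 fold change −0.071 ± 0.47 SE), and counts over the whole gene do not check which exons were deleted. Cx3cr1, the fractalkine receptor gene of microglia, had 747 CPM in cKO 2 and 2756 in cKO 5, against 4333 in control 1 and 5158 in control 6. Hmox1, a BACH1-repressed heme oxygenase gene, had 189.9 CPM in cKO 2 and 1064 in cKO 5, against 558 in control 1 and 590.2 in control 6. Xist, made by the inactive X chromosome, was read in cKO 5 and control 1 and had 0 reads in cKO 2 and control 6, so the libraries of each genotype also differed in sex.

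Most of the synthesis genes had more RNA in cKO 2 than in any other library of the study, and 0 of the 31 passed the test between the genotypes. In cKO against control, edgeR's quasi-likelihood test with Benjamini-Hochberg adjustment over 15951 genes called 0 of the 31 members at an adjusted p under 0.05, where the share called among all genes was 0%, and the smallest adjusted p of a member was 0.9997. At an unadjusted p under 0.05 it named 0 members, against 0.307% of all genes, and limma-voom and DESeq2 also named 0 members at either level. Fitted log2 fold changes were above 0 for 25 of 31 members (80.6%), against 52.8% of all genes, and their median was 0.26 against 0.03 over all genes tested. Scaling instead on the microglia markers, which are lower in cKO 2, moved the median of all genes to 1.25, with 31 members above 0 and 26 above that median. These values rest on 1 library. Without cKO 2, 12 of 31 members were above 0 and their median was −0.10, against −0.03 over all genes of that fit. The difference between cKO 2 and cKO 5 was larger than the fold change between genotypes for 27 of 31 members. The same held for 40 of 46 tested genes in the lists around the pathway described below, and for all 20 microglia markers. It was thus not particular to the members, and the share over all genes is not given here. Unadjusted p-values under 0.05 in edgeR were found for 0 members without cKO 2 (against 3.49% of all genes), 7 without cKO 5 (22.6%, against 10.5%, namely Cyp51, Fdft1, Sqle, Srebf2, Acat2, Elovl6 and Mvk), 0 without control 1 (against 0.236%) and 0 without control 6 (against 0.0583%). In these fits the lone library of a genotype is assumed to vary like the other genotype.

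**Figure D1:**
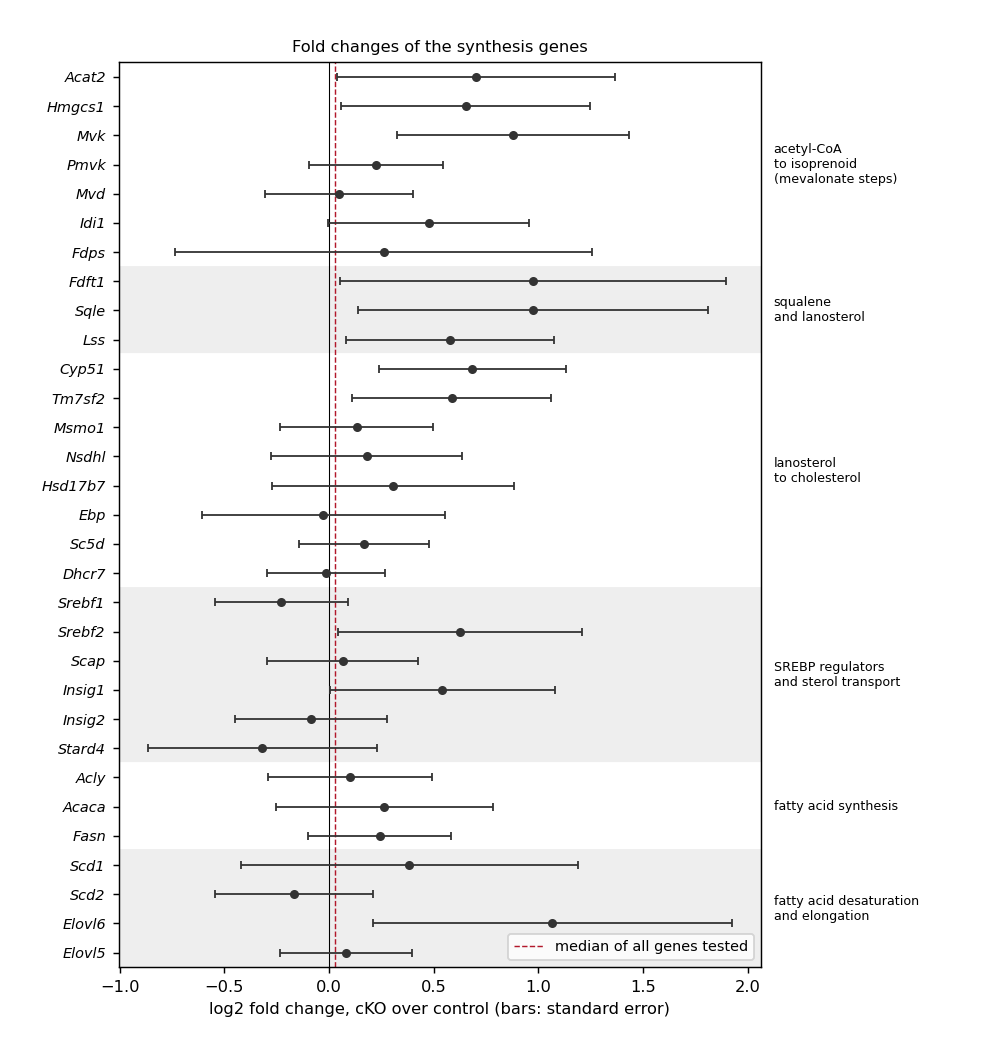
Log2 fold change of each synthesis gene, cKO over control, with bars for the standard error of the edgeR fit, ordered by pathway step. The dashed line is the median of all genes tested (0.03), and the points run from −0.32 for Stard4 to 1.07 for Elovl6 with no gene past the threshold.

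What the genes did show was a frequent top place for cKO 2. On TMM-normalized CPM (scaled so that most genes match between libraries), cKO 2 had the highest value of the 4 libraries for 22 of 31 members (71.0%), against 35.8% of all genes. It was followed by control 1 for 14 of those 22 (45.2% of the 31 members, against 24.2% of all genes). Among all genes tested, cKO 2 was highest for 5717, and control 1 came second for 3864 of those. Second place for control 1 was thus not particular to the members. Both cKO 2 and control 1 lay above cKO 5 and control 6 for 15 members (48.4%, against 34.4% of all genes). The reverse arrangement, with cKO 5 and control 6 both above cKO 2 and control 1, held for 2 members (6.45%), Ebp and Scap, against 30.2% of all genes. For Scap it did not hold on plain CPM, where cKO 2 was highest. Both cKO libraries lay above both controls for 2 members, Mvk and Nsdhl (6.45%, against 8.33% of all genes), and below both for 2, Srebf1 and Scd2 (6.45%, against 7.64%). These shares describe the 4 libraries and carry no test.

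**Figure D2:**
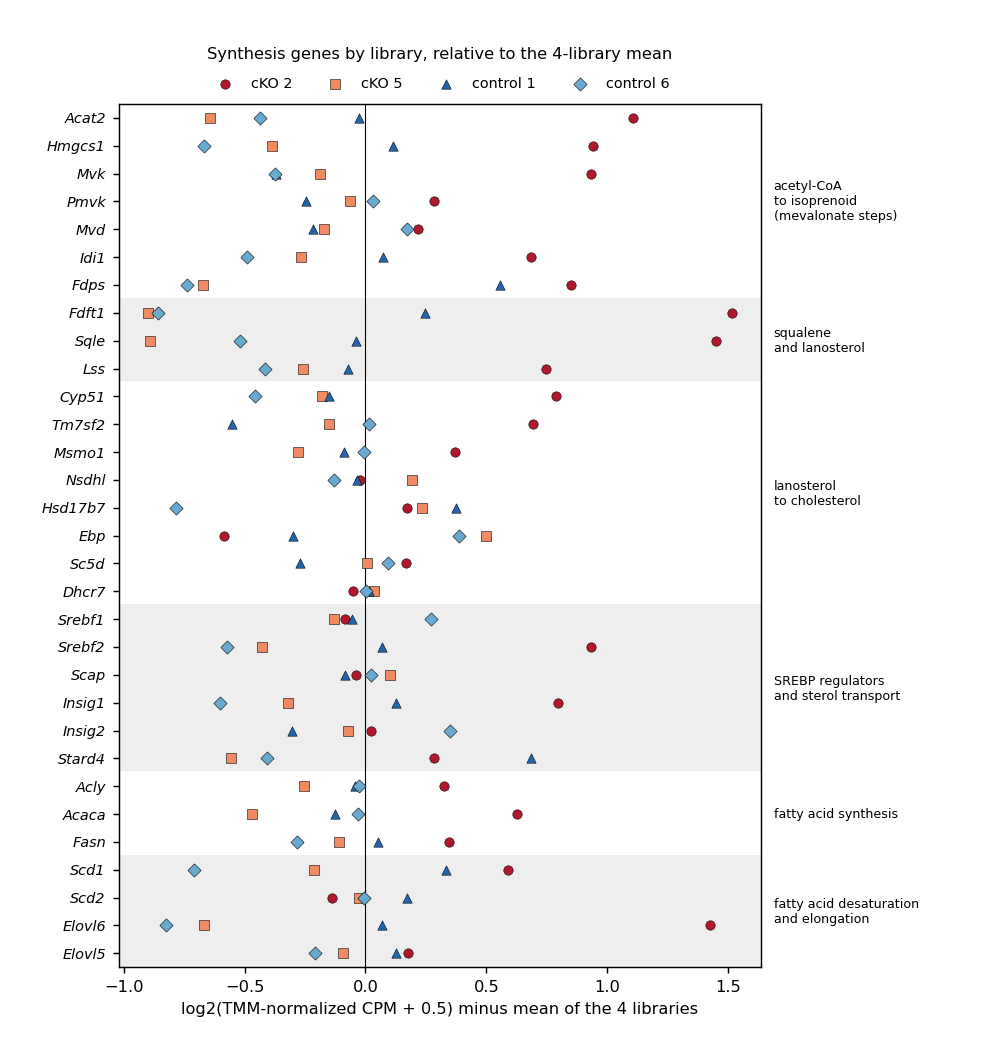
Level of each synthesis gene in the 4 libraries, as log2(TMM-normalized CPM + 0.5) minus the mean of the libraries, ordered by pathway step. The cKO 2 points lie far to the right for Acat2, Hmgcs1, Fdft1, Sqle, Srebf2 and Elovl6, while Dhcr7, Scap and Scd2 stay close to 0 in every library.

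The mevalonate steps turn acetyl-CoA into the isoprenoid farnesyl diphosphate. All 7 members had a fitted fold change above 0 (median 0.48), against 52.8% of all genes. On TMM-normalized CPM all 7 were highest in cKO 2, against 35.8% of all genes, and 0 passed the test. Acat2 (ENSMUSG00000023832, chromosome 17, 12942890 to 12960747), the cytosolic thiolase that joins the first acetyl-CoA units, had 294 CPM in cKO 2 and 69.6 in cKO 5, against 120.3 in control 1 and 80.4 in control 6. The next enzyme, HMG-CoA synthase, is encoded by Hmgcs1 (ENSMUSG00000093930, chromosome 13, 119690462 to 119708086), which had 302 CPM in cKO 2 and 96.5 in cKO 5, against 153 in control 1 and 79.0 in control 6. In both genes cKO 2 stood alone at the top, while cKO 5 lay below both controls for Acat2 and between them for Hmgcs1, so the genotypes overlapped. Acat2 has a close copy beside it, Acat3, so its counts are uncertain where reads match both. Log2 fold changes were 0.70 ± 0.66 for Acat2 and 0.65 ± 0.59 for Hmgcs1 (SE), with means of 199 ± 146 CPM in cKO and 116 ± 52.5 CPM in control for Hmgcs1 (SD, n = 2 each). Mvk, mevalonate kinase, had 30.3 CPM in cKO 2 and 10.9 in cKO 5, against 10.8 in control 1 and 9.52 in control 6. It was the member with the smallest unadjusted p in edgeR (0.182, log2 fold change 0.88 ± 0.55), and here the cKO values were both above the controls, with cKO 5 above control 1 by less than 1 CPM. The kinase and the decarboxylase that follow it varied little. Pmvk, phosphomevalonate kinase, had 89.3 and 56.3 CPM in cKO 2 and cKO 5, and 55.6 and 59.9 CPM in control 1 and control 6 (log2 fold change 0.22 ± 0.32). Mvd, the diphosphate decarboxylase, had 46.0 and 28.02 CPM in cKO 2 and cKO 5, and 30.5 and 35.6 CPM in control 1 and control 6 (0.048 ± 0.35). Both were highest in cKO 2 with control 6 second, so here the second place differed from that of Hmgcs1. Idi1, the isomerase of the isoprenoid unit, returned to the earlier order, with 62.8 CPM in cKO 2 and 25.8 in cKO 5, against 36.8 in control 1 and 22.0 in control 6 (log2 fold change 0.48 ± 0.48). Fdps, farnesyl diphosphate synthase, was read thinly, with 118 reads (6.82 CPM) in cKO 2 and 31 reads (1.61 CPM) in cKO 5, against 86 reads (4.92 CPM) in control 1 and 26 reads (1.51 CPM) in control 6. Its values are uncertain because the gene has processed pseudogenes and its annotated exons share 1124 bp with Gm43738 on the same strand, where reads cannot be assigned to 1 gene. Its log2 fold change was 0.26 ± 1.00.

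The squalene and lanosterol steps, which commit isoprenoids to sterols, had the widest spread. All 3 members had the order cKO 2, then control 1, against 24.2% of all genes on TMM-normalized CPM. Their median fold change was 0.97, with 0 past the test. Sqle (ENSMUSG00000022351, chromosome 15, 59315077 to 59331192), squalene epoxidase, a flux-controlling enzyme of the pathway, had 324 CPM in cKO 2 and 50.7 in cKO 5, against 103 in control 1 and 65.7 in control 6. The cKO 2 value was 6.38 times that of cKO 5, and cKO 5 was the lowest library. Means were 187 ± 193 CPM in cKO and 84.6 ± 26.7 CPM in control (SD, n = 2 each), and the log2 fold change was 0.97 ± 0.84 (SE). Fdft1 (ENSMUSG00000021273, chromosome 14, 63145153 to 63177793), squalene synthase, had 153 CPM in cKO 2 and 22.6 in cKO 5, against 56.8 in control 1 and 23.2 in control 6, a log2 fold change of 0.97 ± 0.92. Again the top and the bottom library were both cKO, and the controls lay between them. Exons of Fdft1 share 774 bp with the opposite strand of Ctsb, a cathepsin gene, and the sources used here do not say whether the counting used strand. Ctsb had 5484 CPM in cKO 2 and 17812 in cKO 5, against 11890.3 in control 1 and 18628 in control 6, so Fdft1 was highest in the library where Ctsb was lowest. In all, 11 of the 31 members share annotated exon with another gene, so their counts carry the same doubt. On the opposite strand the shared length was 985 bp for Scap, 557 bp for Hmgcs1, 381 bp for Lss, 323 bp for Idi1, 166 bp for Cyp51, 109 bp for Srebf1 and 34 bp for Elovl6. On the same strand it was 532 bp for Tm7sf2 (with Vps51), and 66 bp for Srebf1 and 61 bp for Scd2 (each with a microRNA gene). Lss, lanosterol synthase, which closes the sterol rings, had 42.9 CPM in cKO 2 and 16.9 in cKO 5, against 21.6 in control 1 and 15.03 in control 6 (log2 fold change 0.58 ± 0.50). As in Sqle, cKO 2 was highest and control 1 second, but the lowest library was control 6 in Lss and cKO 5 in Sqle.

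**Figure D3:**
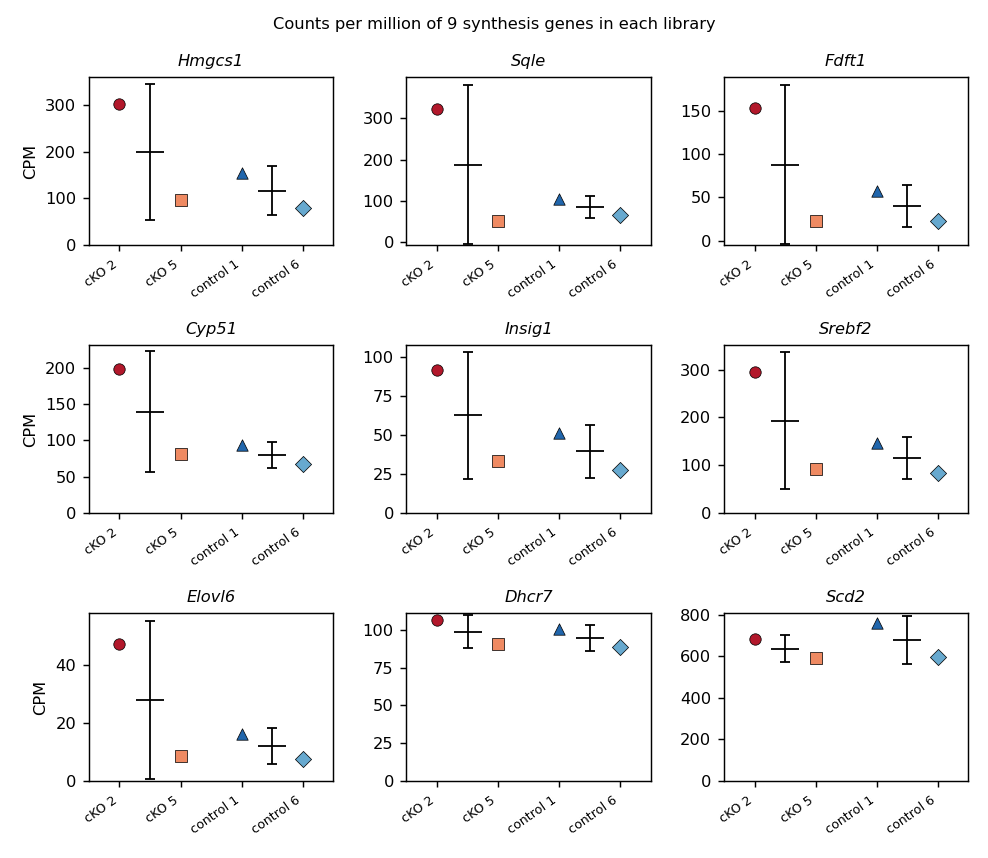
CPM of 9 synthesis genes in each library (points), with the mean and SD of each genotype as a bar (n = 2 each). For Hmgcs1, Sqle, Fdft1, Cyp51, Insig1, Srebf2 and Elovl6 the cKO 2 point stands above the other 3 libraries, whereas Dhcr7 lies between 88.7 and 107 CPM throughout.

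From lanosterol to cholesterol the genes spread less and did not share an order. Of 8 members, 6 had a fold change above 0 (median 0.17), against 52.8% of all genes. On TMM-normalized CPM 4 were highest in cKO 2, against 35.8% of all genes, and 0 passed the test. On plain CPM, Nsdhl and Dhcr7 were also highest in cKO 2. Cyp51 (ENSMUSG00000001467, chromosome 5, 4081145 to 4104746), the lanosterol demethylase, opens this stretch and resembled the earlier enzymes, with 199 CPM in cKO 2 and 81.0 in cKO 5, against 92.9 in control 1 and 66.7 in control 6 (log2 fold change 0.68 ± 0.45, unadjusted p = 0.196 in edgeR). Tm7sf2, a sterol reductase, had 47.7 and 21.1 CPM in cKO 2 and cKO 5, and 17.8 and 23.6 CPM in control 1 and control 6 (log2 fold change 0.59 ± 0.47). Msmo1, a methylsterol oxidase, had 72.2 and 36.7 CPM in cKO 2 and cKO 5, and 47.0 and 44.3 CPM in control 1 and control 6 (0.13 ± 0.36). In these genes cKO 2 led and the other 3 libraries lay close together. Nsdhl, the dehydrogenase that acts with Msmo1, had 11.6 and 10.9 CPM in cKO 2 and cKO 5, and 10.4 and 8.59 CPM in control 1 and control 6. Its values were within a narrow range, and its log2 fold change was 0.18 ± 0.45. Hsd17b7, the ketosteroid reductase of the same complex, had 16 and 13.4 CPM in cKO 2 and cKO 5, and 16.7 and 6.38 CPM in control 1 and control 6, with control 6 alone at the bottom (0.31 ± 0.58). Ebp, a sterol isomerase, ran the other way, with 12.3 CPM in cKO 2 and 21.4 in cKO 5, against 13.6 in control 1 and 19.7 in control 6. Here the low values were those of cKO 2 and control 1, one of each genotype, and the fold change was −0.027 ± 0.58. Nsdhl and Ebp both lie on the X chromosome. Sc5d, a sterol desaturase, had 116 and 82.6 CPM in cKO 2 and cKO 5, and 76.7 and 87.7 CPM in control 1 and control 6 (0.17 ± 0.31). Dhcr7 (ENSMUSG00000058454, chromosome 7, 143823145 to 143848410), the reductase that yields cholesterol itself, had 107 CPM in cKO 2 and 91.1 in cKO 5, against 101 in control 1 and 88.7 in control 6. It was the steadiest member: its highest TMM-normalized CPM was 1.06 times its lowest, where the median of this ratio was 2.29 over all genes tested, and its log2 fold change was −0.015 ± 0.28. Acat2, Hmgcs1 and Sqle thus set cKO 2 apart, and Dhcr7 set no library apart.

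The regulators split along the same lines. Of 6 members, 3 had a fold change above 0 and 3 below (median −0.010), where 52.8% of all genes were above 0, and 0 passed the test. Srebf2 (ENSMUSG00000022463, chromosome 15, 82147266 to 82205376), whose product drives the sterol genes above all, had 295 CPM in cKO 2 and 91.7 in cKO 5, against 146 in control 1 and 82.8 in control 6. Means were 193 ± 144 CPM in cKO and 114 ± 44.4 CPM in control (SD, n = 2 each), a log2 fold change of 0.63 ± 0.58. Srebf1, which is tied more to fatty acid genes, had 39.5 CPM in cKO 2 and 30.6 in cKO 5, against 36.3 in control 1 and 40.6 in control 6, a log2 fold change of −0.23 ± 0.32. Both cKO values of Srebf1 lay below both controls on TMM-normalized CPM but not on plain CPM, and the fold change was smaller than its standard error. Insig1 (ENSMUSG00000045294, chromosome 5, 28071363 to 28078662), itself a target of SREBP and a brake on it, had 91.3 CPM in cKO 2 and 33.5 in cKO 5, against 51.5 in control 1 and 27.4 in control 6 (0.54 ± 0.54). Its order of libraries was that of Srebf2 and Hmgcs1. Insig2, a brake that does not depend on SREBP in the same way, had 56.8 and 42.6 CPM in cKO 2 and cKO 5, and 40.7 and 57.2 CPM in control 1 and control 6 (−0.086 ± 0.36). On plain CPM control 6 and cKO 2 were nearly level at the top. On TMM-normalized CPM control 6 led, with 62.4 against 49.6 in cKO 2. Scap, the escort, had 21.3 and 18.9 CPM in cKO 2 and cKO 5, and 18.5 and 17.8 CPM in control 1 and control 6, a range of 1.14 times between the highest and the lowest TMM-normalized CPM and a log2 fold change of 0.065 ± 0.36. Stard4, a soluble sterol carrier, had 74.1 CPM in cKO 2 and 33.0 in cKO 5, against 88.4 in control 1 and 36.6 in control 6. In this gene control 1 was highest and cKO 2 second, and the log2 fold change was −0.32 ± 0.55.

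Fatty acid genes were mostly highest in cKO 2. Of 7 members, 6 had a fold change above 0 (median 0.24), against 52.8% of all genes. On TMM-normalized CPM 6 were highest in cKO 2, against 35.8% of all genes, and 0 passed the test. Acly (ENSMUSG00000020917, chromosome 11, 100476353 to 100528000), which makes cytosolic acetyl-CoA from citrate and so feeds both pathways, had 622 CPM in cKO 2 and 333 in cKO 5, against 434 in control 1 and 389.8 in control 6 (log2 fold change 0.10 ± 0.39). Acaca, acetyl-CoA carboxylase, the committing step of fatty acid synthesis, had 32.9 CPM in cKO 2 and 12.1 in cKO 5, against 17.4 in control 1 and 16.5 in control 6 (0.26 ± 0.52). Fasn (ENSMUSG00000025153, chromosome 11, 120805846 to 120824547), the fatty acid synthase, had 175 CPM in cKO 2 and 102 in cKO 5, against 129 in control 1 and 90.3 in control 6 (0.24 ± 0.34). In all of them cKO 2 was highest, and in Acly and Acaca cKO 5 was lowest, so the controls again lay between the cKO libraries. Elovl6, which lengthens palmitate, had the largest fold change of the members, with 47.3 CPM in cKO 2 and 8.55 in cKO 5, against 16.4 in control 1 and 7.602 in control 6 (log2 fold change 1.07 ± 0.86, unadjusted p = 0.277 in edgeR). Its cKO 2 value was 5.54 times that of cKO 5, which in turn was within 1 CPM of control 6. Elovl5, an elongase of polyunsaturated fatty acids, had 117 and 77.8 CPM in cKO 2 and cKO 5, and 102 and 71.4 CPM in control 1 and control 6 (0.081 ± 0.32). Scd1 and Scd2 encode stearoyl-CoA desaturases, which place a double bond in saturated fatty acids, and belong to 1 cluster of desaturase genes on chromosome 19. Scd2 (ENSMUSG00000025203, chromosome 19, 44293676 to 44306864), the form known from brain, had 683 CPM in cKO 2 and 590.3 in cKO 5, against 762 in control 1 and 598 in control 6. Both cKO values lay below both controls on TMM-normalized CPM but not on plain CPM. Scd1 was low, with 107 reads (6.18 CPM) in cKO 2 and 51 reads (2.64 CPM) in cKO 5, against 80 reads (4.58 CPM) in control 1 and 30 reads (1.74 CPM) in control 6. Log2 fold changes were −0.17 ± 0.38 for Scd2 and 0.38 ± 0.81 for Scd1, and the genes are similar enough in sequence that some reads may be shared.

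Levels can be set beside each other once divided by length. As RPKM (CPM per kilobase of annotated exons, merged over transcripts), Scd2 was the most abundant member, at 125 and 108 in cKO 2 and cKO 5 and 139 and 109.5 in control 1 and control 6. Acly came next (118, 63.2, 82.2 and 73.8 in the same order), and in cKO 2 its RPKM and that of Acat2 (115) were within 10 of Scd2. Means over the 4 libraries were 55.4 for Acat2, 38.1 for Pmvk and 34.3 for Hmgcs1. Elovl5 (26.1), Cyp51 (24.9), Sqle (24.5) and Srebf2 (21.4) formed a middle group whose ranges over libraries overlapped. Srebf2 had more RPKM than Srebf1 (mean 6.52) in each library. Fatty acid synthase had 11.3, and acetyl-CoA carboxylase 1.16. The lowest members were Fdps (0.882) and Scd1 (0.774), which lay below Scd2 in every library. Merged exons include rarely used ones, which lowers RPKM where annotated alternatives are long.

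**Figure D4:**
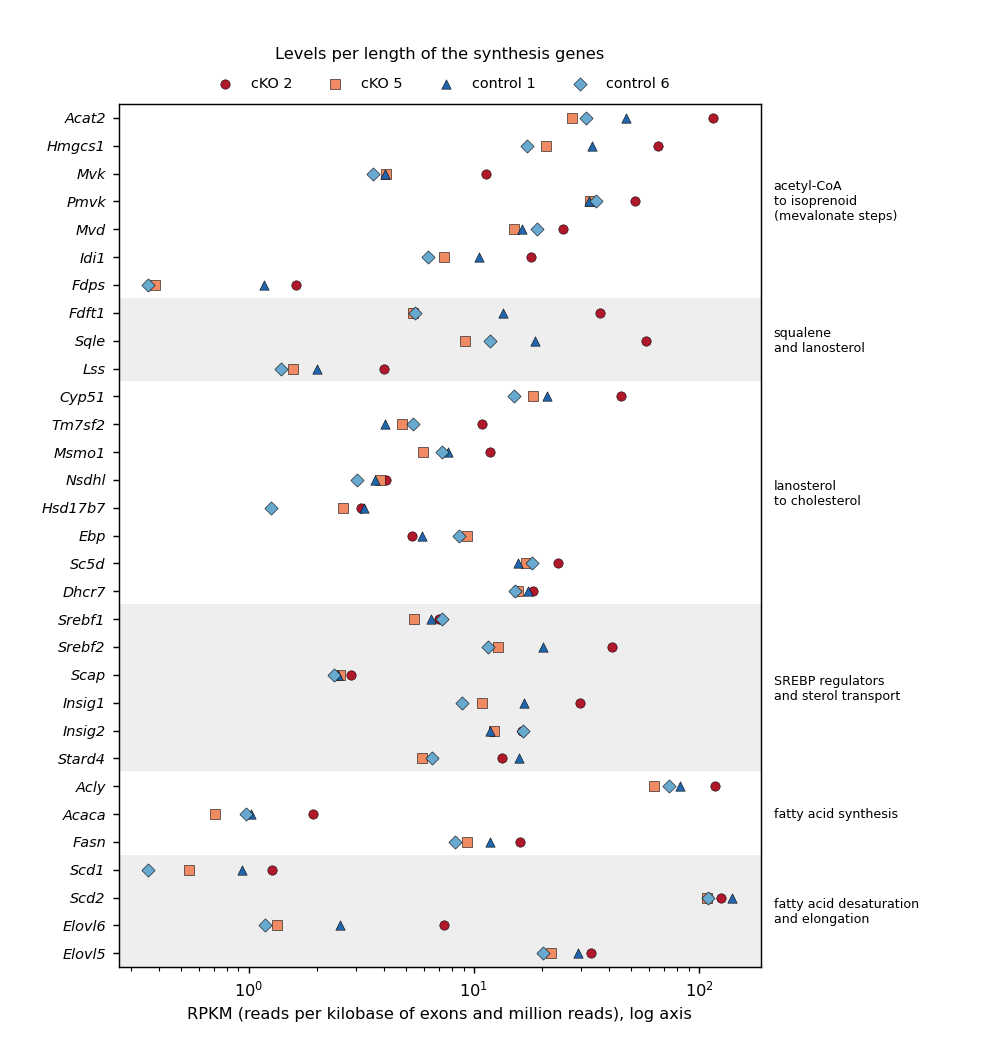
RPKM of each synthesis gene in the 4 libraries on a log axis, ordered by pathway step. Scd2 and Acly are at the high end, Fdps, Scd1 and Acaca at the low end, in each library.

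The authors' deposited table for each pair of libraries gives a call per gene (p under 0.05 and a change of at least 2-fold in every row checked). These 4 comparisons share libraries, and each has 1 library per genotype. In the authors' deposited table of cKO 2 against control 1, 8 of 31 members were called higher (25.8%, against 20.0% of all genes there) and 0 lower (against 11.6%). The 8 were Sqle, Acat2, Srebf2, Fdft1, Cyp51, Elovl6, Tm7sf2 and Mvk. The authors' deposited table of cKO 2 against control 6 called 16 members higher (51.6%, against 33.7%) and 0 lower (against 13.4%), adding Hmgcs1, Insig1, Idi1, Lss, Stard4, Hsd17b7, Fdps and Scd1 to those 8. The authors' deposited table of cKO 5 against control 1 called 0 members higher (against 8.79%) and 4 lower (12.9%, against 26.0%), namely Stard4, Sqle, Fdft1 and Fdps. Against control 6, the authors' deposited table called 1 member of cKO 5 higher, Hsd17b7 (3.23%, against 9.23%), and 0 lower (against 11.4%). For Sqle the log2 fold changes in the authors' deposited tables were 1.65 and 2.30 for cKO 2 against control 1 and control 6, and −1.03 and −0.37 for cKO 5 against the same controls. Insig1 had 0.83 and 1.73 for cKO 2, and −0.62 and 0.29 for cKO 5, in the authors' deposited tables. For Dhcr7 the values in the authors' deposited tables were 0.085, 0.27, −0.14 and 0.038 in that order. The direction of Sqle thus depended on which cKO library was used.

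Genes around the pathway were counted in 4 further lists, in which 0 of 46 tested genes passed the edgeR test and 0 had an unadjusted p under 0.05. Among 5 other sterol and isoprenoid genes, 4 had a fold change above 0, against 52.8% of all genes. On TMM-normalized CPM 4 were highest in cKO 2, against 35.8% of all genes. Acat1, the mitochondrial thiolase, had 160.3 CPM in cKO 2 and 94.9 in cKO 5, against 99.0 in control 1 and 83.4 in control 6 (0.38 ± 0.32). Aacs, which activates acetoacetate for lipid synthesis, had 97.9 CPM in cKO 2 and 36.3 in cKO 5, against 56.2 in control 1 and 37.2 in control 6 (0.39 ± 0.49). Ggps1, which makes geranylgeranyl diphosphate, had 101 and 51.3 CPM in cKO 2 and cKO 5, and 63.6 and 54.4 CPM in control 1 and control 6 (0.25 ± 0.36). Of 6 genes that cut SREBP or turn over INSIG, 2 were above 0, against the same 52.8%. Erlin2, an endoplasmic reticulum protein that binds the SREBP complex, had 107 and 87.4 CPM in cKO 2 and cKO 5, and 86.4 and 88.1 CPM in control 1 and control 6 (0.066 ± 0.29). Mbtps1, the Golgi protease that makes the first cut, had 127 and 73.6 CPM in cKO 2 and cKO 5, and 122 and 74.4 CPM in control 1 and control 6 (−0.063 ± 0.37). Rnf139, a ubiquitin ligase of the endoplasmic reticulum, had 11.03 and 15.3 CPM in cKO 2 and cKO 5, and 13.6 and 18.7 CPM in control 1 and control 6 (−0.35 ± 0.52). Of 20 tested genes for fatty acid supply, elongation and activation, 12 were above 0, against 52.8% of all genes. On TMM-normalized CPM cKO 2 was highest for 9 of the 20, against 35.8% of all genes. Both cKO 5 and control 6 lay above cKO 2 and control 1 for 7, against 30.2% of all genes. Elovl2 and Elovl4, elongases of very long polyunsaturated chains, both had their highest level in cKO 2. Elovl2 had 45.9 CPM in cKO 2 and 2.02 in cKO 5, against 10.02 in control 1 and 4.76 in control 6 (1.50 ± 1.37). Elovl4 had 41.1 CPM in cKO 2 and 4.09 in cKO 5, against 11.1 in control 1 and 2.21 in control 6 (1.61 ± 1.28). Acsl3, an acyl-CoA synthetase, had 30.6 CPM in cKO 2 and 11.8 in cKO 5, against 8.30 in control 1 and 10.4 in control 6, with cKO 5 above both controls on TMM-normalized CPM and the smallest p of these lists (unadjusted p = 0.136 in edgeR).

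Genes for taking up, storing and exporting cholesterol mostly had the opposite order. Of 15, all tested, 2 had a fold change above 0, against 52.8% of all genes. The other 13 were below 0 (median −0.32 over the 15), and 0 passed the test. Both cKO 5 and control 6 lay above cKO 2 and control 1 for 10 of the 15, against 30.2% of all genes. The reverse, with cKO 2 and control 1 on top, held for 3 of the 15, against 34.4% of all genes. On the microglia-marker scaling the fold changes of Soat1, Scarb1 and Nr1h3 were above 0 but below the median of all genes. Apoe, the main apolipoprotein of brain (singled out after its values were seen), had 2681 CPM in cKO 2 and 9547 in cKO 5, against 5729 in control 1 and 8419 in control 6. Soat1, which stores cholesterol as esters, had 121 CPM in cKO 2 and 270.1 in cKO 5, against 227 in control 1 and 302 in control 6 (−0.46 ± 0.61). Scarb1, a lipoprotein receptor, had 188 CPM in cKO 2 and 256 in cKO 5, against 288 in control 1 and 257 in control 6 (−0.34 ± 0.40). Nr1h3, an oxysterol receptor, had 10.98 CPM in cKO 2 and 7.93 in cKO 5, against 18.9 in control 1 and 5.74 in control 6 (−0.43 ± 0.68). In Soat1 cKO 2 was lowest, whereas Nr1h3 was highest in control 1.

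The orders of both lipid groups moved with some cell type markers. As a log2 deviation from the 4-library mean, the median over the 18 sterol enzymes was 0.69 in cKO 2 and −0.18 in cKO 5, against −0.056 in control 1 and −0.40 in control 6. The excitatory neuron markers had 2.00 and −1.05 in cKO 2 and cKO 5, and 0.26 and −1.07 in control 1 and control 6. The radial glia and progenitor markers had 1.49 and −0.89, and 0.43 and −0.97, in the same libraries. The 11 listed radial glia and progenitor markers summed to 965 CPM in cKO 2 and 167 in cKO 5, against 505 in control 1 and 182 in control 6, with none at 0. All 3 lists were highest in cKO 2. So were the interneuron (1.53), astrocyte (1.93) and oligodendrocyte lineage (0.65) markers. The uptake, storage and efflux genes had −1.04 in cKO 2 and 0.49 in cKO 5, against 0.086 in control 1 and 0.42 in control 6. The microglia markers had −1.48 and 0.62, and 0.045 and 0.83, so these lists were both lowest in cKO 2. Endothelial markers were highest in control 1 (1.52) and not in cKO 2 (0.98). The same held for pericyte markers (1.51 against 1.13) and red cell markers (0.77 against 0.19). Border-associated macrophage and cell cycle markers were highest in cKO 5 (1.19 and 0.25). The part of these other cells in the values of the synthesis genes was not tested.

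**Figure D5:**
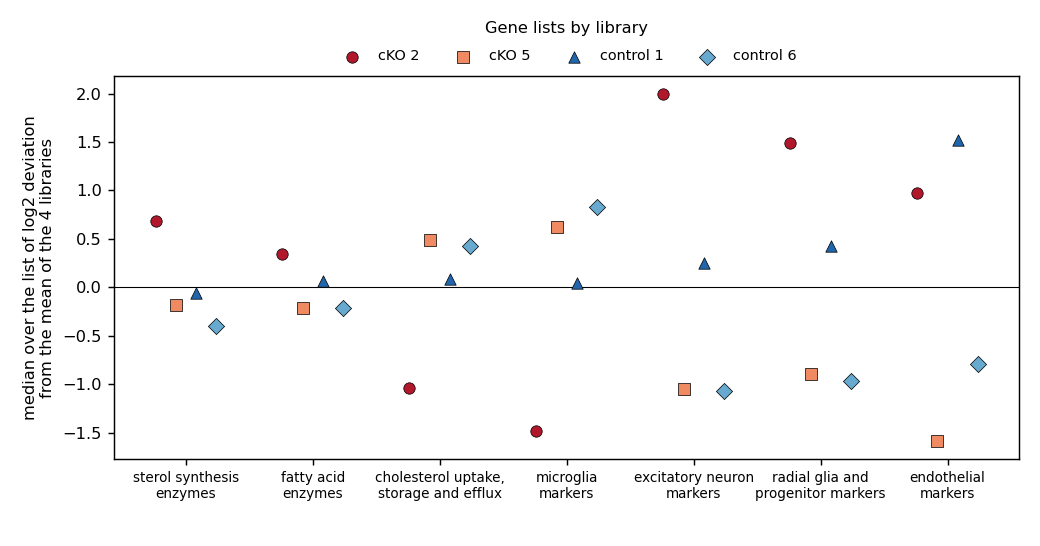
Median over each gene list of the log2 deviation from the mean of the 4 libraries, by library. Sterol enzymes and neuronal and progenitor markers are highest in cKO 2, and the uptake, storage and efflux genes and the microglia markers are lowest there.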

How the data were processed

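RNA from microglia of the cerebral cortex was sequenced in 4 libraries, grouped by genotype from the sample titles (2 cKO, 2 control). The series text speaks of triplicates, and n is 2 per genotype in the libraries analysed here. Per the submitters' processing notes, Bowtie2 2.2.3, TopHat2 2.0.12, HTSeq 0.6.0 and the build mm9 were used, with roles and settings not given. Gene positions in the tables nevertheless matched GENCODE M21 (GRCm38) exactly for 90.3% of 21922 genes and GRCm38 is the build used here. Each of the 4 tables that the authors deposited holds raw read counts and CPM for 1 cKO and 1 control library (a count of 0 holds the CPM of 0.5 reads), a fold ratio, its log2, and p-values from a test not given in the sources used here.

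Counts were joined by gene ID (18723 genes with a count in all libraries) and CPM was computed on the authors' library totals. Genotypes were compared with edgeR 4.0.16 (R 4.3.3): TMM (factors 0.917 to 1.15), filterByExpr with a minimum count of 10, quasi-likelihood test with 2 residual degrees of freedom, two-sided, Benjamini-Hochberg adjusted over 15951 genes at 0.05. All 31 members passed the filter. The design is too small for an exact permutation test to reach 0.05. Deviations use log2(TMM-normalized CPM + 0.5). Other normalizations, no filter, limma-voom 3.58.1, DESeq2 1.42.0, leaving out each library and, chosen after seeing the data, a term for sex were tried. The members, gene lists and tests were chosen with earlier results of these data known. All members are named, with up to 3 genes of smallest p per surrounding list (some genes counted there are not reported singly, and the next gene takes their place), and Bach1, Cx3cr1 and Hmox1. The promoters of Mvk, Insig1 and Fasn were chosen after their sequences were seen.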

Additional observations from a re-analysis of the deposited data

How the results depend on the processing

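No gene, member or not, was past the adjusted threshold under any of the alternatives, so no call depended on them. The members' median log2 fold change, 0.26, stayed between 0.22 and 0.26 with median-ratio size factors, without the low-count filter, and in DESeq2 and limma-voom. Scaling on the microglia markers moved it to 1.61 and the median of all genes from 0.03 to 1.25, so that it lay 0.37 above all genes in place of 0.23. Leaving out 1 library gave medians from −0.10 (without cKO 2) to 0.44 (without cKO 5), where the medians of all genes were −0.03 and 0.03. Without cKO 5, 7 of 31 members had an unadjusted p under 0.05 in edgeR (22.6%, against 10.5% of all genes), and without any other library 0 did. Replicate numbers gave no pairing of libraries, since the genotypes share none. A fit with sex as a term beside genotype, chosen after seeing the data and with sex read from Xist and Ddx3y, had 1 residual degree of freedom. It gave 0 members at an unadjusted p under 0.05 in edgeR, a median of 0.22 and 25 members above 0. The edgeR fit without it had 2 libraries per genotype and a biological coefficient of variation of 0.652.

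On the microglia-marker scaling the log2 fold change became positive, at 0.91 for Ebp, 1.20 for Dhcr7 and 1.07 for Srebf1. So it did at 1.28 for Insig2, 1.03 for Stard4 and 1.01 for Scd2. The median of all genes was 1.25 on that scaling, and of these members only Insig2 lay above it. Outside the members the fold change also became positive, at 0.70 for Rnf139, 1.25 for Mbtps1 and 0.64 for Scarb1. It became 0.33 for Soat1, 0.67 for Nr1h3 and 0.86 for Bach1. Mbtps1 was about level with the median of all genes, and the others lay below it. Hmox1 had −0.41 in limma-voom and −0.43 with the sex term, against 0.16 in edgeR. Leaving out 1 library in turn reversed the sign of the fold change for 34 of the 46 named genes, 22 of them members. Only the ranges of those 34 follow. The remaining members, among them Mvk, Cyp51 and Lss, kept their sign in all of these fits. The fold change ran from −0.40 to 1.32 for Acat2, −0.13 to 1.16 for Hmgcs1 and −0.15 to 0.25 for Mvd. Its range was −0.056 to 0.87 for Idi1 and −0.85 to 1.19 for Fdps. It ran from −0.68 to 1.72 for Fdft1, −0.61 to 1.71 for Sqle, −0.21 to 0.41 for Msmo1, −0.18 to 1.02 for Hsd17b7 and −0.71 to 0.46 for Ebp. Next came −0.020 to 0.36 for Sc5d, −0.073 to 0.058 for Dhcr7, −0.18 to 1.14 for Srebf2, −0.021 to 0.16 for Scap and −0.10 to 0.99 for Insig1. Others ran from −0.39 to 0.28 for Insig2, −0.78 to 0.31 for Stard4, −0.19 to 0.35 for Acly, −0.37 to 0.71 for Acaca and −0.11 to 1.10 for Scd1. The last members ran from −0.35 to 1.76 for Elovl6 and −0.083 to 0.24 for Elovl5. Among genes around the pathway, the ranges were −0.24 to 0.83 for Aacs, −0.088 to 0.53 for Ggps1 and −0.81 to 0.019 for Rnf139. Further genes around the pathway ran from −0.042 to 0.17 for Erlin2, −0.32 to 0.22 for Mbtps1 and −0.78 to 0.021 for Scarb1. Soat1 ran from −1.39 to 0.13 and Nr1h3 from −1.01 to 0.52. Also outside the members, the range was −0.54 to 3.02 for Elovl4 and −1.73 to 2.41 for Elovl2. It was −0.46 to 0.45 for Bach1 and −1.85 to 1.00 for Hmox1. The cause of these reversals was not tested.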
